A study of Mus musculus with 6 samples.

Results

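The genes of the DNA replication fork were followed in 2 subsets of mouse germinal centre B cells, called DP and DN by the labels. The 57 members were taken by symbol, each symbol matching 1 of the 55401 genes in the count tables. They comprise 8 licensing genes, 17 helicase genes, 20 genes of the polymerases, clamp and flap processing, 5 fork protection genes and 7 genes of chromatin assembly and protein turnover at the fork. Cells came from spleens of wild-type (WT) C57BL/6 mice immunised in the peritoneal cavity with sheep red blood cells (SRBC), challenged on day 5 and killed on day 12. There were 3 DP and 3 DN libraries of polyadenylated RNA, all with 1 batch label. Genotype, strain, tissue and immunisation were shared by all 6, so by the labels only the sorted subset differed between the groups. The labels used here give no age and do not name the surface markers behind DP and DN.

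A chromosome is copied from origins that are first licensed and then fired. The origin recognition complex (ORC), with Cdc6 and Cdt1, loads the MCM2 to MCM7 ring onto DNA, and geminin (Gmnn) holds Cdt1 in check so that no origin is licensed again. The kinase Cdc7 with its partner Dbf4, together with Topbp1, turns the loaded ring into the active CMG helicase, made of Cdc45, the MCM ring and the GINS complex. Polymerase alpha with primase starts each new strand, replication factor C (RFC) loads the sliding clamp PCNA, and polymerases delta and epsilon extend the strands. Germinal centre B cells are known for very short division cycles, and many replication genes are known targets of the E2F transcription factors.

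Promoter sequence was read for the members because E2F sites are a textbook feature of these genes. RefSeq windows on GRCm38.p6, from 250 bases before to 50 bases after a gene's start, were matched for 47 of the 57 members. The letters searched were TTTCCCGC, TTTGGCGC, TTTCGCGC and TTTGCCGC on both strands, where neighbouring matches can overlap. At least 1 of these 4 words was held by 21 of the 47 member windows (44.7%), against 4.55% of the windows of tested genes and 2.32% of all windows. The share was 12 of 24 (50%) for members higher in DP, 6 of 13 (46.2%) for members lower in DP and 3 of 10 (30%) for members not called. The CACGTG word stood in 12.8% of member windows, against 10.9% of the windows of tested genes. For CCAAT, on either strand, the shares were 55.3% and 39.9%.

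Stretches that end before both the RefSeq and the GENCODE start are printed for 3 members that were higher in DP (Orc3, Mcm5 and Cdca7) and 3 that were lower (Mcm6, Topbp1 and Pola1), chosen after their letters were seen, to show that the same words stand before genes of both directions. Each is written 5′ to 3′ on the strand of the gene, with the matched words in capitals, which run on where matches overlap. Where the GENCODE start lies upstream, the stretch ends that much earlier, with 112 bases left to the RefSeq start for Topbp1, 60 for Cdca7 and 2 for Orc3, while those of Mcm5, Mcm6 and Pola1 run up to it. The positions on GRCm38.p6 are chr4:34614945-34615104 (minus strand) for Orc3, chr8:75109349-75109508 (plus strand) for Mcm5, chr2:72475999-72476158 (plus strand) for Cdca7, chr1:128359706-128359865 (minus strand) for Mcm6, chr9:103305077-103305214 (plus strand) for Topbp1 and chrX:93632156-93632315 (minus strand) for Pola1.
Orc3: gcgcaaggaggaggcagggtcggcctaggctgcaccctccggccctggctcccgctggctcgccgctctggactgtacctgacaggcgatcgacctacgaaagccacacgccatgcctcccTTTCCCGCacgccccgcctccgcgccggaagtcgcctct
Mcm5: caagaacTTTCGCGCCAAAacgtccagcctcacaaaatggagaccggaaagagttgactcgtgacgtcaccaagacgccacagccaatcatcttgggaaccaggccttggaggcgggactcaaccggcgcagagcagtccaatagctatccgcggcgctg
Cdca7: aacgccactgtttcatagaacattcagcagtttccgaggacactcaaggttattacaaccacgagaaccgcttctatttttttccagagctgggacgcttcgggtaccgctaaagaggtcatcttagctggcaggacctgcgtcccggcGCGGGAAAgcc
Mcm6: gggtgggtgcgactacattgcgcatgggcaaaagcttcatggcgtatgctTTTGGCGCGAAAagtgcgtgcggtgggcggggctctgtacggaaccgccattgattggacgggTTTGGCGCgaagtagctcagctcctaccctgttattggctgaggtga
Topbp1: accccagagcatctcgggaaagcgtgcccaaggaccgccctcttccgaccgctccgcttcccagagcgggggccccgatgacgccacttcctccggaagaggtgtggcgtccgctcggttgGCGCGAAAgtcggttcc
Pola1: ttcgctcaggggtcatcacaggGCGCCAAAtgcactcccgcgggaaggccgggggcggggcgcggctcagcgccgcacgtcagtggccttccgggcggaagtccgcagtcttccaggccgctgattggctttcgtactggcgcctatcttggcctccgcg

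Mcm5 carried a pair of overlapping matches and Mcm6 3 matches in the printed stretch, while the other 4 stretches held 1 each. A match of letters is a description of the window and shows no binding. The directions are those of the test described below, and the calls of Mcm5, Mcm6 and Topbp1 were lost under some of its alternatives.

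The libraries held 17509384 to 20538024 gene counts in DP and 8904415 to 11897360 in DN, so DP was sequenced 1.88 times as deeply. Levels are given as normalised read counts, in CPM, the counts divided by the composition-scaled library size and set to a common total, and 3 counts were worth 0.155 to 0.183 CPM in DP and 0.236 to 0.315 CPM in DN. Changes are log2 fold changes of DP over DN ± standard error from edgeR's quasi-likelihood test over all 11296 tested genes, and a gene was called at a Benjamini-Hochberg adjusted p under 0.05. The design text says that 3 mice gave both subsets, and which library came from which mouse is not labelled, so the p-values measure only the spread between libraries, which may be technical. All 10 germinal centre B cell markers examined had reads in every library, with summed levels of 1346 to 1394 CPM in DP and 3256 to 3400 CPM in DN.

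Other cell types' markers also differed between the groups. The erythroid list, 9 of whose 10 genes were in the tables, summed to 15.9 to 18.3 CPM in DP and 62.1 to 72.5 CPM in DN; its 6 tested genes were all lower in DP, while Klf1 and Epor stayed at or below 0.122 CPM in DP and 0.210 CPM in DN. The 10 macrophage and monocyte genes summed to 10.03 to 12.2 CPM in DP and 26.2 to 29.3 CPM in DN, with 7 of 7 tested genes lower in DP. Of 8 T cell genes, which summed to 57.9 to 60.3 CPM in DP and 50.2 to 58.7 CPM in DN, Lck made up nearly all, at 57.8 ± 1.41 CPM in DP and 50.8 ± 4.00 CPM in DN, and 5 were at 0 in at least 1 library. The 7 neutrophil genes summed to 0.712 to 1.04 CPM in DP and 3.22 to 3.99 CPM in DN, Ly6g being at 0 in all 6 libraries. The 7 plasma cell genes summed to 369.5 to 381 CPM in DP and 403 to 414 CPM in DN, with Tnfrsf17 at 0 in every DP library. Of the 6 tested, 4 were higher and 1 was lower in DP, with a median change of 0.92 on the log2 scale. The lower sum came from Jchain, at 155 ± 2.38 CPM in DP and 277 ± 5.80 CPM in DN, whereas Irf4 averaged 70.5 ± 1.43 CPM in DP and 12.1 ± 0.586 CPM in DN. The 6 naive follicular B cell genes summed to 134 to 143 CPM in DP and 329.7 to 332 CPM in DN. Of the 5 tested, 4 were lower and 1 was higher in DP. Cr2 averaged 39.7 ± 1.36 CPM in DP and 234 ± 5.80 CPM in DN. Fcer2a went the other way, at 91.6 ± 2.71 CPM in DP and 68.8 ± 1.90 CPM in DN. The part of other cells in the results on replication genes was not tested. In such bulk samples, fewer cells in S phase and less of an mRNA per cell cannot be told apart.

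All 57 replication fork genes passed the filter on low counts, and most differed little between the subsets. In DP, 30 were higher and 14 lower, and 13 were not called. Among all tested genes, 75.9% were called, 38.3% higher and 37.6% lower in DP, so a call is common in this comparison. The largest rise was that of Pold2, a subunit of polymerase delta, at 1.44 ± 0.089, and the largest fall was that of Rfc1, the large subunit of the clamp loader, at -0.87 ± 0.036. Pold2 alone was called and at least 2-fold higher, and no member was called and at least 2-fold lower, against 12.3% and 12.8% of all tested genes.

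The members' changes were mostly small. Their median size was 0.23 on the log2 scale, against 0.53 over all tested genes, and 47 of 57 (82.5%) lay within a 1.5-fold change, against 53.8% of all tested genes. The median signed change was 0.11 over the members and 0.0061 over all tested genes, whose middle 50% lay between -0.53 and 0.53. The 3 DP libraries stood wholly above the 3 DN libraries for 29 members and wholly below for 15, while 13 overlapped. Among all tested genes 39% stood wholly above and 38% wholly below, 77% in all.

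Summed over the members, the level was 13478 ± 15.5 CPM in DP and 12885 ± 10.2 CPM in DN (SD, n = 3 each), a ratio of 1.05. As a plain share of gene counts the order was the other way, with 1.25 to 1.27% in the DP libraries and 1.37 to 1.38% in the DN libraries, so the direction of the sum turned with the scaling. With library totals alone in place of composition factors, every gene's change moved down by about the same amount. The median of all tested genes then stood at -0.19 and that of the members at -0.087. The members counted 17 higher and 26 lower. The balance over all tested genes turned as well, with more called lower than higher in DP. The turn was thus not particular to the members, and group counts on this scaling share that background. Relative to the median of all tested genes, 38 of the 57 members stood above it under both scalings. Under 4 scalings, which also included median-ratio and upper-quartile factors, 17 members were called higher each time and 14 lower each time. Those 31 genes are the ones whose direction below does not rest on the scaling. Exceptions among the other called members are named where they occur. Of the members not called as reported, only Orc5 and Cdt1 stayed uncalled with library totals alone. Gmnn, Mcmbp, Cdc45, Dbf4, Gins1, Rfc4, Rpa3, Lig1, Dscc1, Chaf1b and Dtl were called lower on that scaling.

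**Figure D1:**
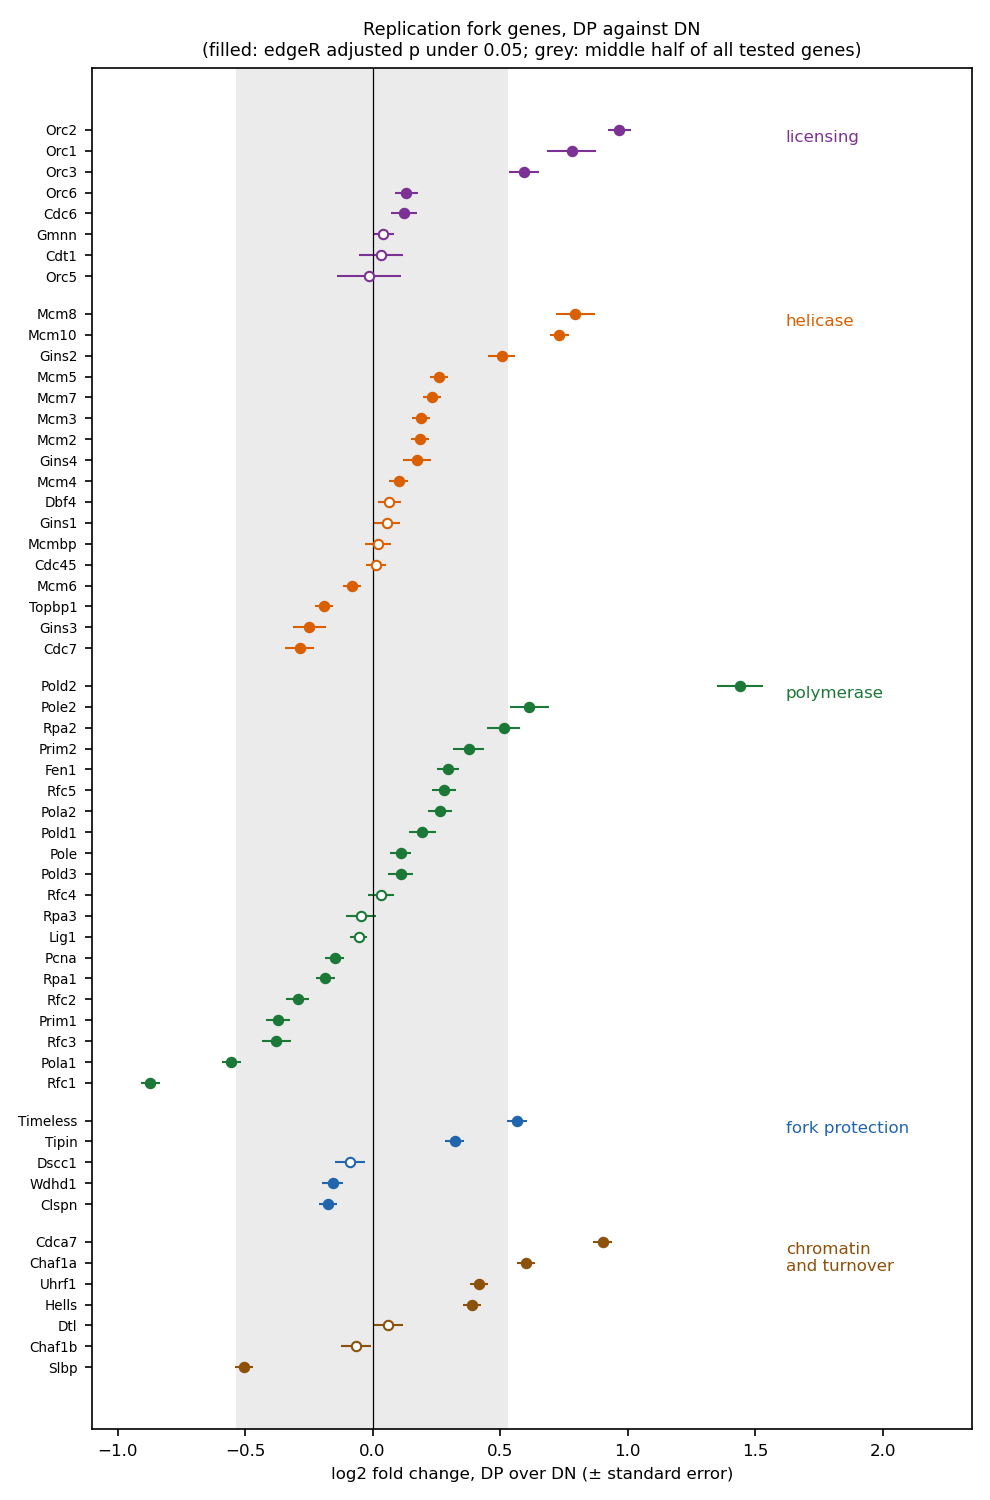
Log2 fold change of DP over DN (x axis, points with standard error) for each of the 57 members, one row per gene and grouped by role, with filled points called at an edgeR adjusted p under 0.05 and open points not called. The grey band spans -0.53 to 0.53, the middle 50% of all tested genes, and holds most members; Pold2 at 1.44 and Rfc1 at -0.87 are the extremes.

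Among the 8 licensing genes, 5 were higher in DP (62.5%), none was lower and 3 were not called, with a median change of 0.13. Over all tested genes, 38.3% were higher and 37.6% lower. With library totals alone, 3 licensing genes were higher and 1 was lower. The largest rises were in ORC. Of the 5 ORC members, 4 were called higher, and their summed level was 349.9 ± 8.30 CPM in DP and 235 ± 3.80 CPM in DN (SD, n = 3 each). Orc2 had 161, 153 and 165 CPM in the DP libraries, against 79.3, 81.5 and 84.3 CPM in the DN libraries (0.97 ± 0.045, adjusted p = 7.57e-28). Orc1, an ATPase subunit, had 19.7, 21.2 and 21.8 CPM in the DP libraries, against 12.5, 12.5 and 11.4 CPM in the DN libraries (0.78 ± 0.095, adjusted p = 1.00e-10). Orc3, the partner of Orc2 in the core of the complex, had 59.6, 56.8 and 59.2 CPM in the DP libraries, against 38.5, 38.7 and 39.2 CPM in the DN libraries (0.59 ± 0.059, adjusted p = 9.01e-14). On mm10, the annotated gene of Orc2 spans chr1:58462771-58505109. In each of these 3 genes the lowest DP library stood well above the highest DN library, and the call held under all 4 scalings.

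The smallest subunit, Orc6, had 104, 101 and 102 CPM in the DP libraries, against 91.2, 95.96 and 93.6 CPM in the DN libraries (0.13 ± 0.046, adjusted p = 0.008). Its groups were close without overlapping, and with library totals alone the change was -0.065. Cdc6, the loader that joins ORC at the origin, had 74.4, 73.9 and 75.2 CPM in the DP libraries, against 65.7, 72.2 and 67.5 CPM in the DN libraries (0.12 ± 0.051, adjusted p = 0.0247), a change that was -0.072 with library totals alone and was no longer called without DP replicate 3, DN replicate 1 or DN replicate 3. The values of both genes thus lay within a narrow range in all 6 libraries.

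Orc5, another ATPase subunit of ORC, had the fewest counts of any member, with 9.14, 8.08 and 8.62 CPM in the DP libraries, against 9.04, 9.03 and 7.90 CPM in the DN libraries (-0.015 ± 0.12, adjusted p = 0.918; 95% interval -0.26 to 0.23). Cdt1, the MCM loading factor, had 19.4, 19.9 and 21.3 CPM in the DP libraries, against 20.4, 18.4 and 20.3 CPM in the DN libraries (0.033 ± 0.086, adjusted p = 0.735; 95% interval -0.14 to 0.20). Its inhibitor Gmnn had 150.3, 140.3 and 151 CPM in the DP libraries, against 139, 146 and 143 CPM in the DN libraries (0.042 ± 0.042, adjusted p = 0.365; 95% interval -0.041 to 0.12). The groups overlapped for all 3, and the log2 ratio of Cdt1 over Gmnn in CPM was -2.86 ± 0.077 in DP and -2.86 ± 0.11 in DN (SD, n = 3 each).

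Of the 17 helicase genes, 9 were higher in DP (52.9%), 4 were lower (23.5%) and 4 were not called, with a median change of 0.10. Over all tested genes the shares were 38.3% and 37.6%. With library totals alone the helicase balance turned, to 3 higher and 9 lower, and the balance over all tested genes moved the same way. The summed level of the 17 genes was 5109 ± 69.2 CPM in DP and 4615 ± 40.1 CPM in DN (SD, n = 3 each). As for all members, the direction of this sum turned with library totals alone. The strongest rises were in Mcm8 and Mcm10, proteins outside the MCM2 to MCM7 ring, and in the GINS subunit Gins2. Mcm10, a factor that acts in CMG activation and in starting synthesis, had 331, 334 and 329 CPM in the DP libraries, against 204, 202 and 192 CPM in the DN libraries (0.73 ± 0.038, adjusted p = 8.86e-26). Mcm8, a relative of the ring subunits that works with Mcm9 in recombination repair, had 35.8, 33.05 and 35.4 CPM in the DP libraries, against 19.2, 22.3 and 18.8 CPM in the DN libraries (0.80 ± 0.078, adjusted p = 6.56e-14). Gins2 had 76.7, 78.8 and 76.3 CPM in the DP libraries, against 56.7, 50.9 and 55.2 CPM in the DN libraries (0.51 ± 0.053, adjusted p = 6.61e-13). On mm10 the annotated gene of Mcm10 spans chr2:4989714-5012791 and that of Mcm8 chr2:132816141-132844197. All 3 kept their calls under the 4 scalings, with no overlap between the groups.

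The antisense gene Gse1 shares 67.3% of the annotated exon length of Gins2, and Gse1 averaged 24.6 CPM in DP and 41.0 CPM in DN. The strand setting of the counting is not given in the sources used here, so shared reads were not told apart.

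The ring subunits were abundant and moved by little. Of the 6 genes, 5 were higher in DP and 1 was lower. Mcm5 had 650.0, 694 and 679 CPM in the DP libraries, against 561, 549.6 and 578 CPM in the DN libraries (0.26 ± 0.036, adjusted p = 2.36e-09). Mcm7 changed by 0.23 ± 0.036, Mcm3 by 0.19 ± 0.034, Mcm2 by 0.19 ± 0.036 and Mcm4 by 0.10 ± 0.038. Without DN replicate 1, Mcm4 was not called, at 0.079. All 5 calls rested on the scaling. With library totals alone Mcm5 and Mcm7 changed by 0.065 and 0.038 and were not called higher. On that scaling Mcm2 and Mcm3 stood at -0.0096 and -0.0063 and were not called, while Mcm4, at -0.094, was called lower. Mcm6 stood apart from its partners, with 565, 571 and 574 CPM in the DP libraries, against 591, 607 and 612 CPM in the DN libraries (-0.081 ± 0.035, adjusted p = 0.0319), a small fall that was called without DN replicate 1 but not when any other library was left out. A ratio within a library does not depend on the scaling, and the log2 ratio of Mcm5 over Mcm6 in CPM was 0.24 ± 0.040 in DP and -0.099 ± 0.038 in DN (SD, n = 3 each), with no overlap between the groups.

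Of the firing factors, the kinase Cdc7 had 42.5, 46.7 and 48.2 CPM in the DP libraries, against 55.5, 54.9 and 57.3 CPM in the DN libraries (-0.29 ± 0.058, adjusted p = 1.59e-05), and every DP library was below every DN library. Its activator Dbf4 had 123, 123 and 122 CPM in the DP libraries, against 119, 124 and 109 CPM in the DN libraries (0.066 ± 0.045, adjusted p = 0.177; 95% interval -0.022 to 0.15), and was called only without DN replicate 2, at 0.11, among the libraries left out in turn. The log2 ratio of Dbf4 over Cdc7 in CPM was 1.42 ± 0.098 in DP and 1.07 ± 0.12 in DN (SD, n = 3 each), so the kinase and its activator were not in the same proportion. Topbp1, a scaffold in origin firing that also activates the checkpoint kinase ATR, changed by -0.19 ± 0.036.

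The GINS complex was split. Gins3 had 37.6, 37.6 and 37.7 CPM in the DP libraries, against 48.4, 42.2 and 42.6 CPM in the DN libraries (-0.25 ± 0.064, adjusted p = 4.45e-04), the opposite direction to Gins2, and Gins4 changed by 0.18 ± 0.055, a call that was lost with library totals alone, where it stood at -0.020. Gins1 had 64.3, 65.9 and 66.4 CPM in the DP libraries, against 66.2, 61.9 and 60.6 CPM in the DN libraries (0.055 ± 0.053, adjusted p = 0.341; 95% interval -0.048 to 0.16). The log2 ratio of Gins2 over Gins3 in CPM was 1.04 ± 0.027 in DP and 0.29 ± 0.076 in DN (SD, n = 3 each). Cdc45, which joins GINS and the ring in the CMG, had 178, 175 and 177 CPM in the DP libraries, against 172, 175 and 178 CPM in the DN libraries (0.015 ± 0.039, adjusted p = 0.739; 95% interval -0.063 to 0.092). Mcmbp, a chaperone of MCM subunits, had 77.9, 74.5 and 75.3 CPM in the DP libraries, against 70.1, 79.8 and 75.02 CPM in the DN libraries (0.022 ± 0.051, adjusted p = 0.698; 95% interval -0.078 to 0.12). Libraries of both groups overlapped for Gins1, Cdc45 and Mcmbp.

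**Figure D2:**
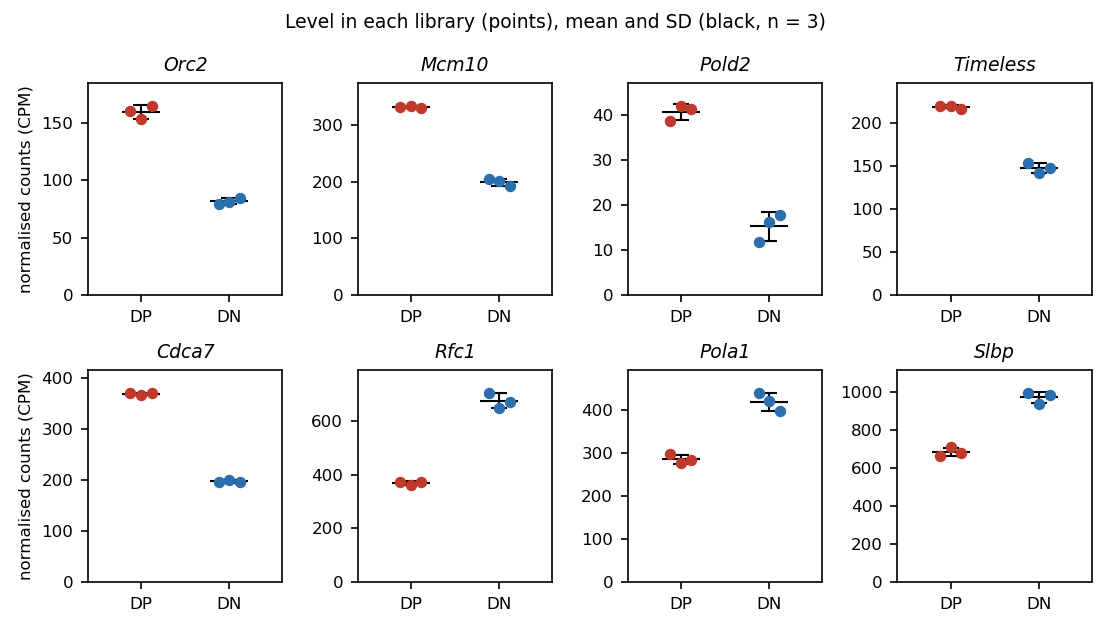
Normalised read count in CPM (y axis, from 0) of 8 members in each library (points), DP left of DN, with the mean and SD in black (n = 3). Orc2, Mcm10, Pold2, Timeless and Cdca7 are higher in all 3 DP libraries and Rfc1, Pola1 and Slbp are lower in all 3; Pold2 has the widest relative spread, from 11.7 to 17.9 CPM in DN.

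The 20 genes that prime, extend and join DNA changed in both directions, with 10 higher in DP (50%), 7 lower (35%) and 3 not called. All tested genes also went both ways, 38.3% higher and 37.6% lower. The median change of the 20 genes was 0.071, and with library totals alone 5 were higher and 10 were lower. Their summed level was 3329 ± 30.7 CPM in DP and 3773 ± 16.9 CPM in DN (SD, n = 3 each). Pold2, an accessory subunit of polymerase delta, had 38.6, 41.96 and 41.3 CPM in the DP libraries, against 11.7, 16.2 and 17.9 CPM in the DN libraries (1.44 ± 0.089, adjusted p = 1.15e-19). Its annotated gene spans chr11:5872180-5878292 on mm10. DN replicate 1 was the lowest DN library, and without it the change was 1.26, still the largest of any member. The catalytic subunit Pold1 changed by 0.20 ± 0.053 and Pold3 by 0.11 ± 0.049, small rises that stood at -0.0010 and -0.087 with library totals alone. The groups overlapped for Pold3, whose call was also lost without DP replicate 1, DP replicate 3, DN replicate 1 or DN replicate 2.

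Polymerase epsilon was uneven as well. The accessory subunit Pole2 had 38.2, 40.1 and 36.7 CPM in the DP libraries, against 24.8, 21.7 and 28.5 CPM in the DN libraries (0.62 ± 0.075, adjusted p = 1.11e-10), while the catalytic subunit Pole changed by 0.11 ± 0.042, or by -0.086 with library totals alone and 0.093, not called, without DN replicate 3. In polymerase alpha, Pola1, the catalytic subunit, had 297, 276 and 284 CPM in the DP libraries, against 439, 419.5 and 397 CPM in the DN libraries (-0.55 ± 0.038, adjusted p = 5.16e-20), and its accessory subunit Pola2 changed by 0.27 ± 0.047. Primase was also divided: Prim1, the catalytic subunit, had 75.7, 72.4 and 71.9 CPM in the DP libraries, against 92.6, 95.96 and 96.4 CPM in the DN libraries (-0.37 ± 0.048, adjusted p = 4.37e-10), and the large subunit Prim2 changed by 0.38 ± 0.060. Pola1, Prim1, Prim2 and Pole2 kept their calls under the 4 scalings; Pola2 did not, at 0.069 with library totals alone.

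The clamp loader held the largest fall. Rfc1 had 373, 359.8 and 372 CPM in the DP libraries, against 702, 648 and 670.1 CPM in the DN libraries (-0.87 ± 0.036, adjusted p = 2.01e-30). Its annotated gene spans chr5:65261850-65335670 on mm10. It is the large subunit that is specific to the loader of PCNA, whereas Rfc2 to Rfc5 also serve in other loaders. Of those small subunits, Rfc2 changed by -0.29 ± 0.045, Rfc3 by -0.38 ± 0.058 and Rfc5 by 0.28 ± 0.047, the last at 0.083 with library totals alone. Rfc4 had 75.4, 80.2 and 78.3 CPM in the DP libraries, against 70.6, 81.9 and 77.5 CPM in the DN libraries (0.032 ± 0.052, adjusted p = 0.58; 95% interval -0.069 to 0.13), with overlapping groups. The clamp itself, Pcna, changed by -0.15 ± 0.036, with a mean of 411 ± 2.07 CPM in DP and 456 ± 15.3 CPM in DN (SD, n = 3 each); its processed pseudogene Pcna-ps2 held 2.49 CPM in DP and 3.21 CPM in DN, and how reads shared by both were counted is not given.

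Replication protein A (RPA) coats the single strands that the helicase exposes. Rpa2, its middle subunit, had 49.6, 51.8 and 52.3 CPM in the DP libraries, against 32.9, 40.4 and 35.00 CPM in the DN libraries (0.51 ± 0.065, adjusted p = 2.28e-10), whereas the large subunit Rpa1 changed by -0.19 ± 0.038. The small subunit Rpa3 had 47.7, 45.2 and 46.6 CPM in the DP libraries, against 48.7, 46.6 and 48.2 CPM in the DN libraries (-0.045 ± 0.059, adjusted p = 0.491; 95% interval -0.16 to 0.070), and its libraries overlapped. Rpa1 and Rpa2 kept their opposite directions under the 4 scalings.

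Fen1, the nuclease that trims flaps between Okazaki fragments, changed by 0.30 ± 0.044 and was called higher under the 4 scalings. Lig1, the ligase that seals the fragments, had 851, 843 and 825 CPM in the DP libraries, against 862, 866 and 888 CPM in the DN libraries (-0.055 ± 0.034, adjusted p = 0.139; 95% interval -0.12 to 0.012). Its DP libraries lay just below its DN libraries without overlap, by an amount that did not pass the test. With library totals alone the change of Lig1 was -0.25 and was called lower.

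Of the 5 fork protection genes, 2 were higher in DP (40%), 2 were lower (40%) and 1 was not called, with a median change of -0.089. These shares were near the 38.3% and 37.6% of all tested genes. With library totals alone, 2 fork protection genes were higher and 3 were lower. Timeless, the larger partner of the fork protection complex, had 220.0, 219.7 and 217 CPM in the DP libraries, against 153, 142 and 147 CPM in the DN libraries (0.57 ± 0.040, adjusted p = 1.72e-19). Its partner Tipin had 413, 388 and 398 CPM in the DP libraries, against 324, 325 and 309 CPM in the DN libraries (0.32 ± 0.037, adjusted p = 1.36e-11). Both partners were higher in all 3 DP libraries, and both calls held under the 4 scalings. Clspn, the checkpoint mediator that travels with the fork and brings Chek1 to ATR, had 654, 611 and 610.0 CPM in the DP libraries, against 717, 704 and 696 CPM in the DN libraries (-0.18 ± 0.035, adjusted p = 1.43e-05). Wdhd1, which links the helicase to polymerase alpha, had 188, 184 and 195 CPM in the DP libraries, against 226, 194 and 211 CPM in the DN libraries (-0.16 ± 0.043, adjusted p = 9.16e-04), and its second DN library, at 194 CPM, lay within the DP range. Dscc1, a subunit of an alternative clamp loader used for sister chromatid cohesion, had 46.2, 44.4 and 41.4 CPM in the DP libraries, against 47.3, 46.7 and 46.3 CPM in the DN libraries (-0.089 ± 0.060, adjusted p = 0.178; 95% interval -0.21 to 0.030). For Dscc1 every DP library was below every DN library, by an amount that did not pass the test. With library totals alone its change was -0.28 and was called lower.

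Of the 7 genes that act on chromatin or on protein and RNA turnover at the fork, 4 were higher in DP (57.1%), 1 was lower (14.3%) and 2 were not called. Over all tested genes the shares were 38.3% and 37.6%. The median change of the 7 genes was 0.39, and with library totals alone 4 were higher and 3 were lower. Cdca7, a zinc finger protein that recruits the remodeller Hells to nucleosomes, had 371, 368 and 371 CPM in the DP libraries, against 196, 202 and 196 CPM in the DN libraries (0.90 ± 0.037, adjusted p = 1.72e-30). Hells, a remodeller needed for DNA methylation, had 819, 775 and 817 CPM in the DP libraries, against 637, 606 and 598 CPM in the DN libraries (0.39 ± 0.036, adjusted p = 5.44e-15). Uhrf1, which brings the maintenance methyltransferase to newly copied DNA, had 519.8, 534 and 517 CPM in the DP libraries, against 387, 388 and 402 CPM in the DN libraries (0.42 ± 0.036, adjusted p = 3.63e-16). The annotated gene of Cdca7 spans chr2:72476159-72486893 on mm10. Cdca7, Hells and Uhrf1 were higher in every DP library, and all 3 calls held under the 4 scalings. Dnmt1, the maintenance methyltransferase itself, is not a member and averaged 1735 ± 21.04 CPM in DP and 1878 ± 26.6 CPM in DN (SD, n = 3 each; -0.11 ± 0.033, adjusted p = 0.00179), lower in DP.

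Chaf1a, the large subunit of the histone chaperone CAF-1, had 488, 478 and 493 CPM in the DP libraries, against 318, 321 and 323 CPM in the DN libraries (0.60 ± 0.036, adjusted p = 6.21e-23). Its partner Chaf1b had 47.00, 50.8 and 51.9 CPM in the DP libraries, against 48.9, 53.8 and 54.8 CPM in the DN libraries (-0.067 ± 0.059, adjusted p = 0.3; 95% interval -0.18 to 0.049), with overlapping groups. The log2 ratio of Chaf1a over Chaf1b in CPM was 3.29 ± 0.078 in DP and 2.61 ± 0.076 in DN (SD, n = 3 each). Dtl, the substrate receptor through which a Cul4 ligase removes Cdt1 during S phase, had 49.02, 51.7 and 52.2 CPM in the DP libraries, against 49.99, 50.7 and 45.7 CPM in the DN libraries (0.062 ± 0.058, adjusted p = 0.334; 95% interval -0.053 to 0.18), and the groups overlapped. Slbp, which binds the stem-loop of replication-dependent histone mRNAs, was the 1 gene of the group that was lower, with 668, 711 and 682 CPM in the DP libraries, against 997, 941 and 987 CPM in the DN libraries (-0.51 ± 0.035, adjusted p = 7.96e-20). The DP values of Slbp were all below the lowest DN value by a wide margin, and its call held under the 4 scalings.

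Levels of different genes were compared per kilobase of merged exon (CPM per kb), a scale on which genes with long alternative exons read low. Mcm3 was the highest member, at 283 CPM per kb in DP and 248 in DN, followed in DP by Tipin (214 CPM per kb in DP and 171 in DN), Lig1 (197 CPM per kb in DP and 204 in DN), Pcna (171 CPM per kb in DP and 190.1 in DN) and Mcm5 (169 CPM per kb in DP and 141 in DN). Orc5 was the lowest, at 1.40 CPM per kb in DP and 1.40 in DN. Within the MCM ring, the highest subunit was 3.71 times the lowest in DP and 3.57 times in DN, so the spread among the 6 subunits was similar in both subsets. Their order was not fully kept, with Mcm4 lowest in DP and Mcm2 lowest in DN. Mcm7 stood at 126 CPM per kb in DP and 107 in DN, and Mcm6 at 122 in DP and 129 in DN. Within ORC the ratio of highest to lowest was 29.7 in DP and 27.0 in DN, with Orc6 highest and Orc5 lowest in both.

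The spread from highest to lowest says nothing of the subunits between: Orc2 stood at 41.4 CPM per kb in DP and 21.2 in DN and Orc6 at 41.5 CPM per kb in DP and 37.9 in DN. In polymerase delta, Pold2 was the highest of the 3 subunits in DP and the lowest in DN, at 21.4 CPM per kb in DP and 8.04 in DN, beside 15.5 CPM per kb in DP and 13.6 in DN for Pold1 and 19.7 CPM per kb in DP and 18.3 in DN for Pold3. In polymerase epsilon, Pole was 1.00 times Pole2 per kb in DP and 1.42 times in DN. Among the 4 genes of polymerase alpha and primase, the highest, Pola1, was 2.94 times the lowest, Prim2, in DP and 5.56 times in DN. GINS changed order as well, with Gins3 lowest in DP and Gins2 lowest in DN.

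Ratios of partners in CPM, which no scaling moves, gave the same picture in each library. Pola1 over Pola2 was 1.49 ± 0.064 in DP and 2.30 ± 0.12 in DN on the log2 scale (SD, n = 3 each here and below). Rfc1 over Rfc4 was 2.24 ± 0.071 in DP and 3.14 ± 0.17 in DN. Pold2 over Pold1 was -0.89 ± 0.055 in DP and -2.14 ± 0.22 in DN. In these 3 pairs the DP and DN libraries did not overlap, and the differences were wide against the SDs. Prim2 over Prim1 was -0.16 ± 0.091 in DP and -0.91 ± 0.15 in DN, Rpa2 over Rpa1 was -2.08 ± 0.064 in DP and -2.77 ± 0.14 in DN, and Rfc5 over Rfc3 was 1.21 ± 0.016 in DP and 0.56 ± 0.12 in DN. Orc2 over Orc6 was 0.64 ± 0.051 in DP and -0.20 ± 0.042 in DN, and Timeless over Tipin was -0.87 ± 0.044 in DP and -1.12 ± 0.072 in DN. The pairs were picked after the changes were known, so these ratios describe the libraries and are not tests.

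**Figure D3:**
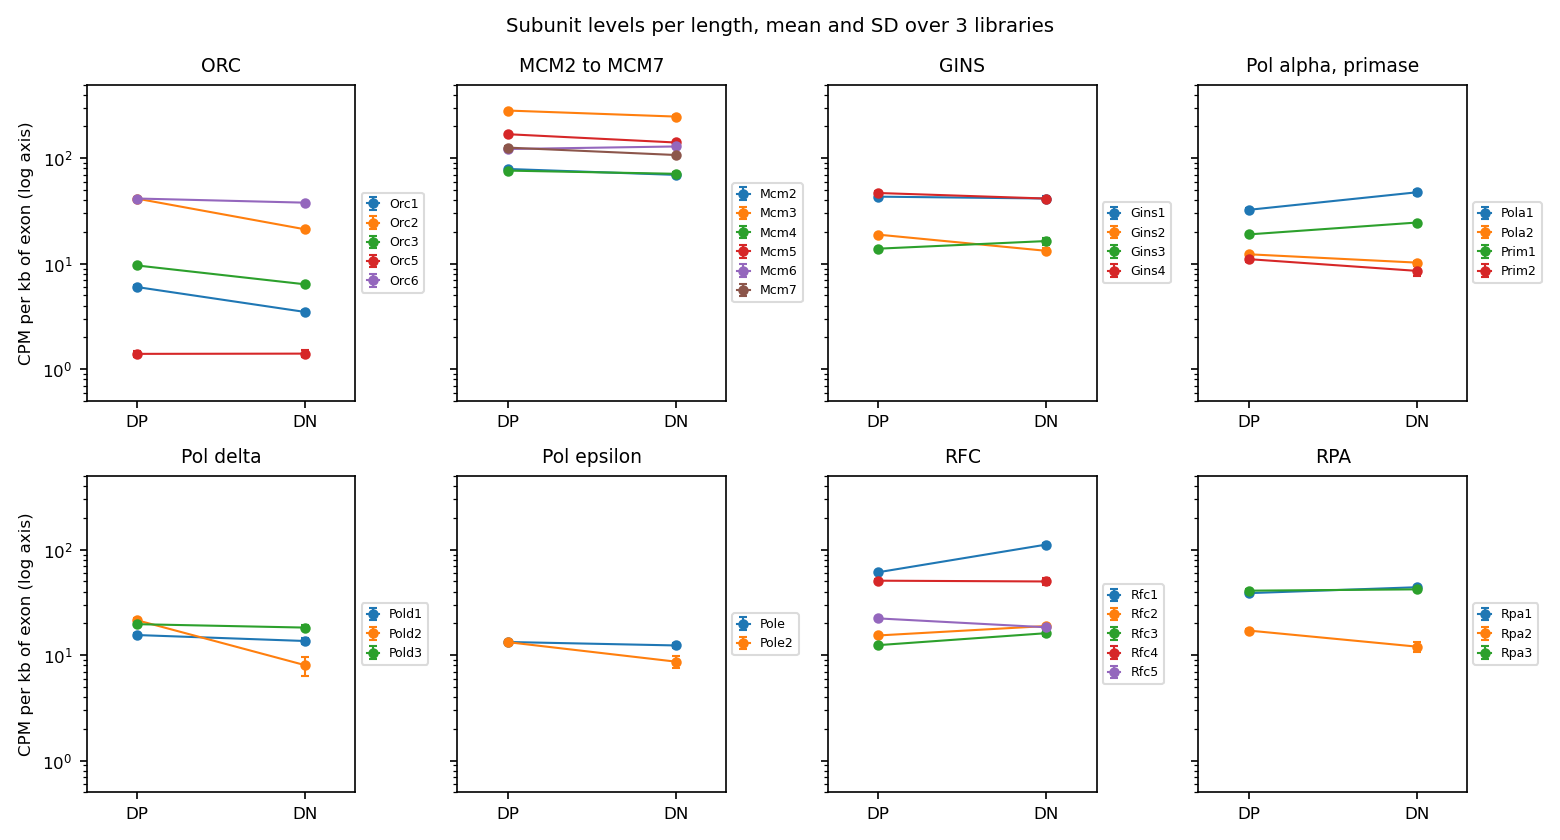
Mean level of each subunit in CPM per kb of merged exon (y axis, log scale) in DP and DN, with SD over 3 libraries, in 8 complexes. Lines that cross mark subunits whose order differs, as for Pold2 (21.4 CPM per kb in DP and 8.04 in DN) against Pold1 and Pold3, and for Gins2 against Gins3. The MCM2 to MCM7 lines run nearly level, though Mcm6 and Mcm7 change order, as do Mcm2 and Mcm4.

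Few members changed by much. Tested against a minimum fold of 1.5, 6 members remained higher in DP (Orc1, Orc2, Mcm8, Mcm10, Pold2 and Cdca7) and Rfc1 alone remained lower, whereas without a minimum 30 and 14 were called. Spread between replicates was low, with a median coefficient of variation over the members of 2.85% in DP and 3.35% in DN and a highest value of 20.8% for Pold2 in DN. Across the 57 members, the log2 fold change had a Spearman correlation of -0.15 with exon length and 0.27 with exon GC content, against -0.042 and 0.13 over 10971 tested genes with both values; these points share their libraries and are not independent.

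Antisense overlap touched some of the genes named above. Gm10143 covers 78.8% of Fen1 and had at most 0.104 CPM. Ubxn6 covers 52.5% of Chaf1a and averaged 10.7 CPM in DP and 10.3 CPM in DN, and Nif3l1 covers 29.8% of Orc2 and averaged 13.7 CPM in DP and 7.58 CPM in DN. These partners are low beside Chaf1a and Orc2. Partners with a higher mean CPM than their member in DP were Eif4a2, which covers 12.7% of Rfc4 and averaged 374 CPM in DP and 356 CPM in DN, Lat2, which covers 15.1% of Rfc2 and averaged 107 CPM in DP and 112 CPM in DN, and Vps35, which covers 6.93% of Orc6 and averaged 139 CPM in DP and 145 CPM in DN. None of these 3 partners was called, and how shared reads were counted is not given.

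**Figure D4:**
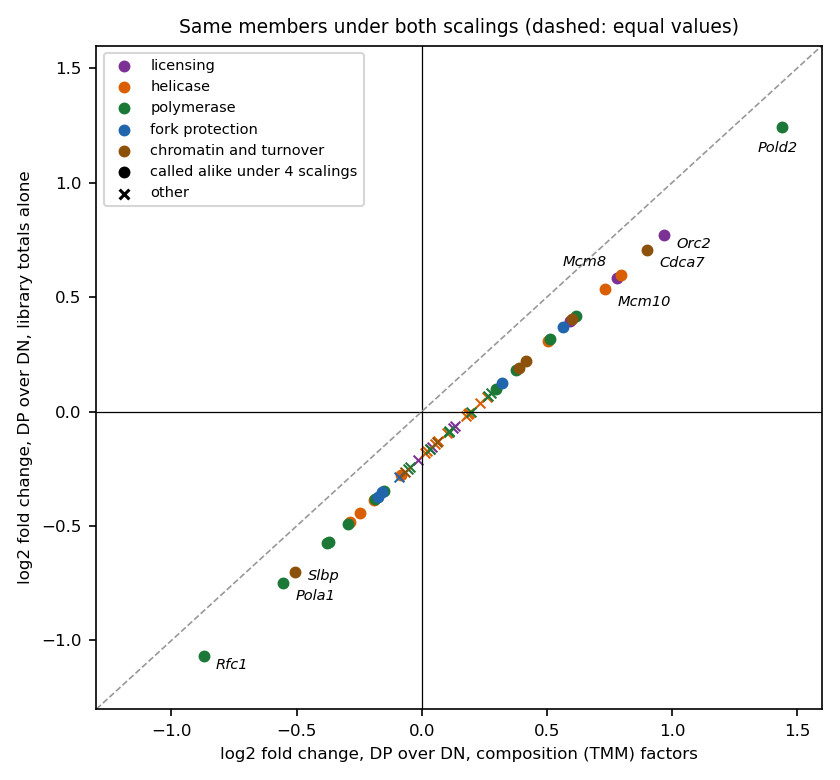
Log2 fold change of DP over DN of the 57 members with composition (TMM) factors (x axis) and with library totals alone (y axis), coloured by role; circles were called in the same direction under all 4 scalings and crosses were not. All points lie about the same distance below the dashed line of equal values, so the order of the genes is kept while 17 members near 0 change sign.

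Beyond the members, 58 other replication genes were taken from a list, of which 56 passed the filter; Mcmdc2 and Pold4 had at most 0.308 CPM in any library. In DP, 19 were higher, 21 were lower and 16 were not called, with a median change of 0.041. The shares, 33.9% higher and 37.5% lower, were near the 38.3% and 37.6% of all tested genes. By the smallest p, Polh (polymerase eta) changed by -1.49 ± 0.051, Rev3l (the catalytic subunit of polymerase zeta) by -1.56 ± 0.049, Ddb1 (an adaptor of Cul4 ligases) by 0.89 ± 0.037 and Nasp (a histone chaperone) by 0.79 ± 0.034. Of the genes called against the majority, which were those higher in DP, Recql4, a helicase linked to origin firing, came next after Ddb1 and Nasp at 1.20 ± 0.058. The genes for damage-tolerant polymerases and repriming on the list, singled out after their values were seen, were all lower in DP. Beside Polh and Rev3l they were Poli (-1.53 ± 0.078), Polk (-0.40 ± 0.090), Rev1 (-0.75 ± 0.049) and Primpol (-0.91 ± 0.078). Polh, which copies past damaged bases and is known to add mutations at A and T bases in germinal centre B cells, had 39.3, 39.8 and 39.5 CPM in the DP libraries, against 113, 108 and 112 CPM in the DN libraries. No DP library of Polh reached the lowest DN library.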

How the data were processed

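Polyadenylated RNA was sequenced from 3 DP and 3 DN libraries of sorted splenic germinal centre B cells. Per the labels' protocols, total RNA went into a stranded KC-Digital library kit. The deposited values are raw read counts per gene, with a table for each library. The submitters' processing notes name mm10 as the build and HTSeq 0.13.5, STAR 2.7.10a and Trim Galore 0.6.6 as tools. What each tool did, the annotation release, the strand setting and any use of molecular identifiers are not given there. Reads merged over both strands would mix antisense partners, and duplicate reads would narrow counting error.

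The 5 summary rows, with 9.56% of counts in DP and 12.6% in DN, were left out. The filterByExpr filter (minimum count 10) left 11296 of 55401 genes; the other 44105 held 0.113% of gene counts. The counts were fitted with the robust quasi-likelihood F test of edgeR 4.0.16 (R 4.3.3), with TMM factors (0.926 to 0.941 in DP, 1.069 to 1.071 in DN), no block and Benjamini-Hochberg adjustment over all tested genes. Standard errors came from the fitted change and its F statistic. Exon lengths, positions and overlaps came from GENCODE M21, and promoter windows from RefSeq, where 10 members had none. A value of 3 counts was taken as the floor. The fit was tested on simulated data.

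Within a group, pairs of libraries differed by more than sampling noise, with chi-square per degree of freedom of 1.96 to 3.24 in DP and 1.98 to 3.26 in DN, against 144 to 182 between groups, so all 6 were kept.

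Members and lists were chosen with earlier results of these data known. All 57 members are named. Values per library are given in each role group for up to 4 called members with the largest change, up to 2 called against the majority and every member not called, and also, chosen after their values were seen, for Cdc6, Mcm5, Mcm6, Prim1, Rpa2 and Hells. Of other lists, up to 4 genes with the smallest p and up to 3 against the majority are named, and others where said. Alternatives were other scalings and filters, DESeq2 1.42.0, limma-voom (limma 3.58.1), no robust estimation, a minimum fold of 1.5, a stricter adjusted p (0.01), DP thinned to DN depth, removal of the 10 most abundant genes, a replicate block, each library left out, and trends with GC content and length removed.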

Additional observations from a re-analysis of the deposited data

How the results depend on the processing

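Calls of all 57 members were the same with median-ratio factors, limma-voom, no robust estimation, the 10 most abundant genes left out and the replicate number as a block. With that replicate block, 30 members were higher and 14 lower, and 4338 and 4251 of all tested genes. Same-numbered libraries deviated with correlations of 0.068, 0.0010 and -0.011, and not every library correlated best with its own number. Such values cannot show whether equal numbers mark the same mouse, since a small difference between mice would also give low correlations. With library totals alone, counts were 17 higher and 26 lower for all members (30 and 14 as reported). More of all tested genes were then called lower than higher as well. By group, the counts were 3 higher and 1 lower for licensing (5 and 0) and 3 and 9 for helicase (9 and 4). There were 5 higher for polymerase (10) and 3 lower for chromatin and turnover (1). This scaling put the median of all tested genes at -0.19 in place of 0.0061, and changes of opposite sign were -0.065 for Orc6, -0.072 for Cdc6, -0.16 for Cdt1, -0.15 for Gmnn, -0.0096 for Mcm2, -0.0063 for Mcm3, -0.094 for Mcm4, -0.17 for Mcmbp, -0.18 for Cdc45, -0.13 for Dbf4, -0.14 for Gins1, -0.020 for Gins4, -0.0010 for Pold1, -0.087 for Pold3, -0.086 for Pole, -0.16 for Rfc4 and -0.13 for Dtl. With a minimum fold of 1.5, which by construction leaves fewer calls, 6 members were higher and 1 lower, as were 1964 and 1912 of all tested genes (4328 and 4243 as reported). The groups then had 2 higher for licensing, 2 higher and 0 lower for helicase, 1 and 1 for polymerase, 0 and 0 for fork protection and 1 and 0 for chromatin and turnover. Licensing had 3 higher with the stricter filter of 50 counts and with DP thinned to DN depth, and fork protection had 1 lower without a filter; the cause was not tested. Upper-quartile factors turned members near 0, to -0.00030 for Cdt1, -0.011 for Mcmbp, -0.018 for Cdc45 and -0.0015 for Rfc4, as did the stricter filter, to -0.016 for Cdt1, -0.0067 for Gmnn, -0.027 for Mcmbp, -0.034 for Cdc45 and -0.017 for Rfc4, and no filter, to 0.059 for Orc5, 0.029 for Rpa3, 0.019 for Lig1 and 0.0071 for Chaf1b. Removing trends with GC content and length, chosen after seeing the data, left 1 lower for fork protection and 2 for chromatin and turnover and gave 0.12 for Orc5, -0.14 for Cdt1, -0.00019 for Mcmbp, -0.035 for Cdc45 and 0.25 for Rpa3; Rpa3 was then called, as were Dbf4, Dtl, Lig1 and Chaf1b at 0.23, 0.28, -0.18 and -0.17, while Cdc6, Topbp1, Pold1, Pold3 and Wdhd1 were not, at 0.10, -0.049, 0.050, 0.079 and -0.073. When each library was left out in turn, members called ranged from 27 to 30 higher and from 13 to 14 lower, and changes that crossed 0 ranged from -0.068 to 0.039 for Orc5, -0.0040 to 0.070 for Cdt1, -0.025 to 0.075 for Mcmbp and -0.027 to 0.088 for Rfc4. Of members reversed anywhere, none was past 0.25 in size in its reversed state. Depth limits the low genes most: 3 counts were 0.155 to 0.183 CPM in DP and 0.236 to 0.315 CPM in DN, against 8.61 CPM in DP and 8.66 CPM in DN for Orc5, the lowest member.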

Other observations

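The other context lists were not part of the fork. Of 15 genes that supply nucleotides, 10 were higher (66.7%) and 5 lower (33.3%) in DP, against 38.3% and 37.6% of all tested genes. Their median change was 0.32, against 0.0061 over all tested genes. By the smallest p, Mthfd1, a folate pathway enzyme, averaged 645 ± 8.61 CPM in DP and 138 ± 3.51 CPM in DN (SD, n = 3 each; 2.22 ± 0.039 on the log2 scale), and Shmt1, a serine hydroxymethyltransferase, averaged 136 ± 3.33 CPM in DP and 14.6 ± 1.59 CPM in DN (3.23 ± 0.064). Samhd1, which degrades deoxynucleotides, averaged 336 ± 13.6 CPM in DP and 809.5 ± 14.2 CPM in DN (-1.27 ± 0.036), and Rrm2b, the p53-regulated small subunit of ribonucleotide reductase, averaged 41.6 ± 3.79 CPM in DP and 156 ± 7.17 CPM in DN (-1.91 ± 0.052). Dck, the salvage kinase of deoxycytidine, also ran against the majority at -1.47 ± 0.048. The S phase small subunit Rrm2 changed by 0.29 ± 0.042 and Rrm1 by 0.19 ± 0.035, values of the same order as those of the MCM ring. Both were named after their values were seen. The size of these rises also depends on the scaling, since library totals alone put the median of all tested genes at -0.19.

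Of 22 genes of G2 phase and mitosis, 8 were higher, 9 lower and 5 not called in DP, with a median change of -0.0076. The shares, 36.4% higher and 40.9% lower, were near the 38.3% and 37.6% of all tested genes. The summed level of the 22 genes was 10775 ± 446 CPM in DP and 13764 ± 636 CPM in DN (SD, n = 3 each). By the smallest p, Nusap1, a spindle protein, changed by -0.60 ± 0.037, Ccnb1, cyclin B1, by 0.64 ± 0.042, Kif23, a kinesin of cytokinesis, by -0.53 ± 0.038 and Cdk1, the mitotic kinase, by 0.55 ± 0.043. Plk1, a mitotic kinase higher in DP as well, changed by 0.49 ± 0.043. Mki67, the proliferation marker, made up most of the difference in the sum, with 5304, 4847 and 4675 CPM in the DP libraries, against 7706, 6907 and 6967 CPM in the DN libraries (-0.54 ± 0.044); it was named after its value was seen.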
